A study of Mus musculus with 23 samples.

Results

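The genes examined were 9 genes of T cell activation and costimulation: Il2ra, Il2rb, Tnfrsf4, Tnfrsf9, Tnfrsf18, Icos, Cd69, Cd44 and Ikzf2. Every probe set whose annotation gave only the symbol of a member was taken. The list itself was drawn up with earlier results of these data known, so counts over it are descriptions. This gave 14 probe sets for 8 of the 9 listed genes, out of 12393 genes measured, and no probe set named a member together with another gene. Cd69 had no probe set by this rule and was not analysed here.

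The series holds 23 Affymetrix Mouse 430A 2.0 arrays as deposited, on which each gene is read by 1 or more sets of short probes. The study set Snf5-deficient lymphomas against wild-type CD8+ T cells to look for gene programmes disturbed when Snf5 is lost in a tumour. Snf5 is the product of Smarcb1 and belongs to the SWI/SNF remodelling complex, which moves nucleosomes, and Ezh2 is the Polycomb enzyme that methylates histone H3. The 5 lymphoma arrays held CD8+ cells purified from lymphomas of Snf5-deficient mice and the 6 wild-type arrays held CD8+ T cells purified from wild-type mice, all aged 10 to 15 weeks. The fibroblast arrays held Ezh2-deficient mouse embryonic fibroblasts (MEFs, 3 arrays), fibroblasts deficient in both Snf5 and Ezh2 (3 arrays) and wild-type fibroblasts, all from E13.5 embryos. The wild-type fibroblasts were given as 2 sets of 3 arrays that repeated one another and were counted as 3 samples. The strain, the alleles and the Cre driver behind the Snf5 and Ezh2 deficiencies, the stimulation of the wild-type T cells if any, and the number of animals per array are not stated in the labels. The titles call the arrays biological replicates without saying that each came from its own animal, so a p-value here reflects the spread from array to array, which may be technical.

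A resting CD8+ T cell that meets its antigen makes the alpha chain of the interleukin-2 receptor (Il2ra, CD25), which joins the beta chain (Il2rb) and the common gamma chain to bind interleukin-2 with high affinity. It also displays costimulatory receptors of the tumour necrosis factor receptor family, among them OX40 (Tnfrsf4), 4-1BB (Tnfrsf9) and GITR (Tnfrsf18), which bind TRAF adaptors and feed NF-kB, and ICOS, a relative of CD28. CD44, a receptor for hyaluronan, stays high on T cells that have met antigen, and Helios (Ikzf2) is an Ikaros family transcription factor known from regulatory T cells.

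To show what lies in front of receptor genes that were higher in the lymphomas, the 250 bases before the annotated start are printed for Il2ra, Tnfrsf9 and Tnfrsf18 from RefSeq (build GRCm38.p6). The choice was limited to the 5 of 9 members with an entry, which Icos and Ikzf2 were not among. Tnfrsf4 directly neighbours Tnfrsf18 on chromosome 4, with 0 protein-coding genes between them, and its window is not printed because it reaches into the preceding gene. Capitals mark matches, on either strand, to the NF-kB consensus, to the AP-1 motif TGANTCA and to the STAT motif TTCNNNGAA. The 4 windows, all on the plus strand, are chr2:11642542-11642791 for Il2ra, chr4:150919905-150920154 for the upstream start of Tnfrsf9, chr4:150927749-150927998 for a downstream start within Tnfrsf9, and chr4:156026072-156026321 for Tnfrsf18.
Il2ra: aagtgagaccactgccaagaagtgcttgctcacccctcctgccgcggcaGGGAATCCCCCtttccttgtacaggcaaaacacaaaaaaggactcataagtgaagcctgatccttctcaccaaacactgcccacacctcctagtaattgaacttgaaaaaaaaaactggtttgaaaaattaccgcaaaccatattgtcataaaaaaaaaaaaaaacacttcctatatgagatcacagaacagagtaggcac
Tnfrsf9, upstream start: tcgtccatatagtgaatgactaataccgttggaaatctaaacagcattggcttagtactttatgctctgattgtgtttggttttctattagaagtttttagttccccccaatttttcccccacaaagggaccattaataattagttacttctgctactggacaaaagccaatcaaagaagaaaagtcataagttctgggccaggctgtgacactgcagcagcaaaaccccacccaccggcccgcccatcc
Tnfrsf9, downstream start: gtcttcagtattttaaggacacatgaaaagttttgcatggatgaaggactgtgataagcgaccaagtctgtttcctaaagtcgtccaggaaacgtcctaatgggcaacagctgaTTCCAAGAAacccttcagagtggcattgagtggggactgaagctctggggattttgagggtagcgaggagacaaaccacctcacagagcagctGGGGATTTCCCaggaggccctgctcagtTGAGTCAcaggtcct
Tnfrsf18: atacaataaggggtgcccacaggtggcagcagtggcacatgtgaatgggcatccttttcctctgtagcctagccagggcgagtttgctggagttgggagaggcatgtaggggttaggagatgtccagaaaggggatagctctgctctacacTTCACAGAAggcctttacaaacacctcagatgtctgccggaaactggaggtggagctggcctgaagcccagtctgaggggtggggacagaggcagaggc

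The Il2ra window held an NF-kB match, read at 2 overlapping positions on opposite strands, and the downstream Tnfrsf9 window held another of the same form together with 1 AP-1 and 1 STAT match. Tnfrsf18 held 1 STAT match, and none of these letters stood in the upstream Tnfrsf9 window or in the windows of Tnfrsf4 and Cd44. Of all 32851 RefSeq windows of this length, 3.9% held the NF-kB consensus, 6.75% the AP-1 motif and 7.02% the STAT motif. The NFAT core GGAAA was found in all of the members' windows and in 55.6% of all windows. A match describes the letters and is no evidence of binding.

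The arrays were first set against their labels. Cd8a, a coreceptor chain that defines CD8+ T cells, read 13.12 to 13.55 (log2 intensity, probe set 1425335_at) on the lymphoma arrays, against 13.32 to 13.64 on wild-type replicates 2 to 5, and 10.73 and 10.59 on wild-type replicates 1 and 6. Another Cd8a probe set read 12.13 to 13.03 on the lymphoma arrays, against 10.49 to 13.19 on wild-type replicates 2 to 5, and 8.73 and 6.61 on replicates 1 and 6. Cd8b1, the partner chain, read 11.97 to 12.90 on the lymphoma arrays, against 12.53 to 13.61 on replicates 2 to 5, and 9.35 and 8.07 on replicates 1 and 6. Wild-type replicates 1 and 6 stood apart, and whether their cells match the label could not be settled, a doubt that every comparison with all 6 arrays carries. The mean log2 level of 10 myeloid markers was 7.78 to 9.61 on the lymphoma arrays, against 6.01 to 7.72 on wild-type replicates 2 to 5, and 11.8 and 11.7 on replicates 1 and 6. B cell markers were also high on replicates 1 and 6. The receptors are therefore given against all 6 wild-type arrays and against replicates 2 to 5, and a neighbouring gene against replicates 2 to 5 where its fold moved by over 1.5 times or its call ended. Smarcb1 read 5.64 to 8.67 on the lymphoma arrays and 10.38 to 11.48 on the wild-type arrays (probe set 1416045_a_at, log2 difference -3.65). Another Smarcb1 probe set differed less, at 8.65 to 9.98 on the lymphoma arrays and 10.12 to 12.59 on the wild-type arrays (log2 difference -1.95). In RNA of mixed cells, fewer cells of a type and less RNA per cell cannot be told apart.

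**Figure D1:**
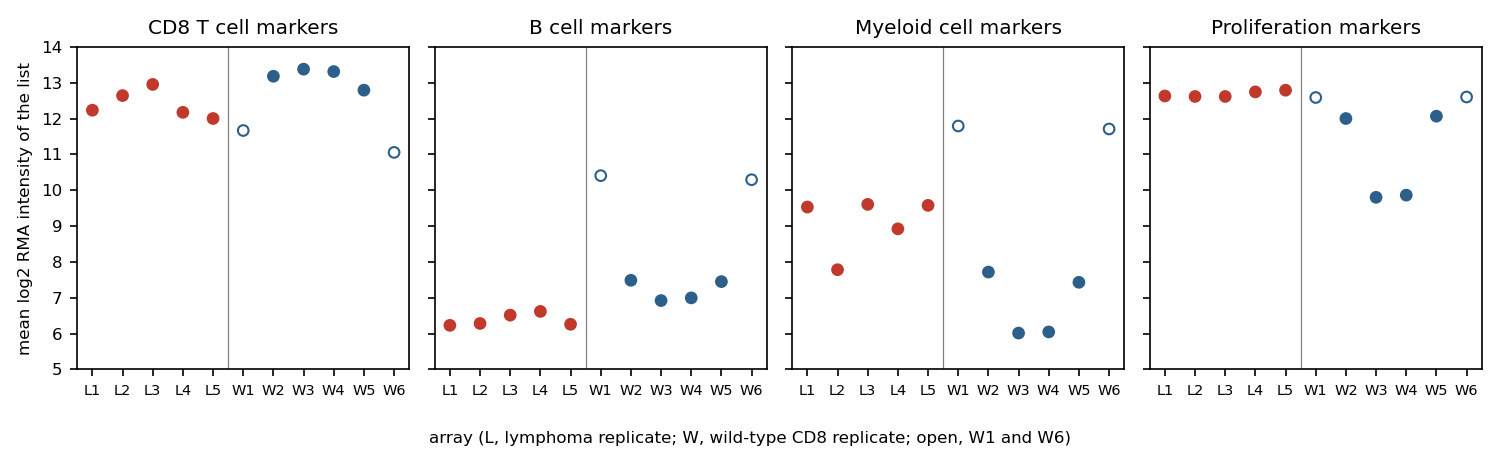
Mean log2 RMA intensity of the CD8 T cell, B cell, myeloid cell and proliferation marker lists on each lymphoma array (red, L1 to L5) and each wild-type CD8 array (blue, W1 to W6), with wild-type replicates 1 and 6 as open circles. Wild-type replicates 1 and 6 are lowest for CD8 markers and highest for B cell and myeloid markers, with myeloid means of 11.8 and 11.7, and wild-type replicates 3 and 4 are lowest for proliferation markers.

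Against all 6 wild-type arrays, 9 of the 14 probe sets were higher in the lymphomas and 0 were lower (limma, adjusted p under 0.05), where 8.47% of all 22626 probe sets were higher and 6.83% lower. The 9 probe sets covered Il2ra, Tnfrsf4, Tnfrsf9, Tnfrsf18, Icos and Ikzf2. On 7 of the 14, every lymphoma array lay above every wild-type array, against 6.58% of all probe sets. The median log2 fold change of the 14 was 1.82, and that of all probe sets -0.07. Il2rb and Cd44 were not called in either direction. Against wild-type replicates 2 to 5, 8 probe sets were higher and 0 lower, beside 11.8% and 12.8% of all probe sets, with a median log2 fold change of 1.64 against -0.12 overall.

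**Figure D2:**
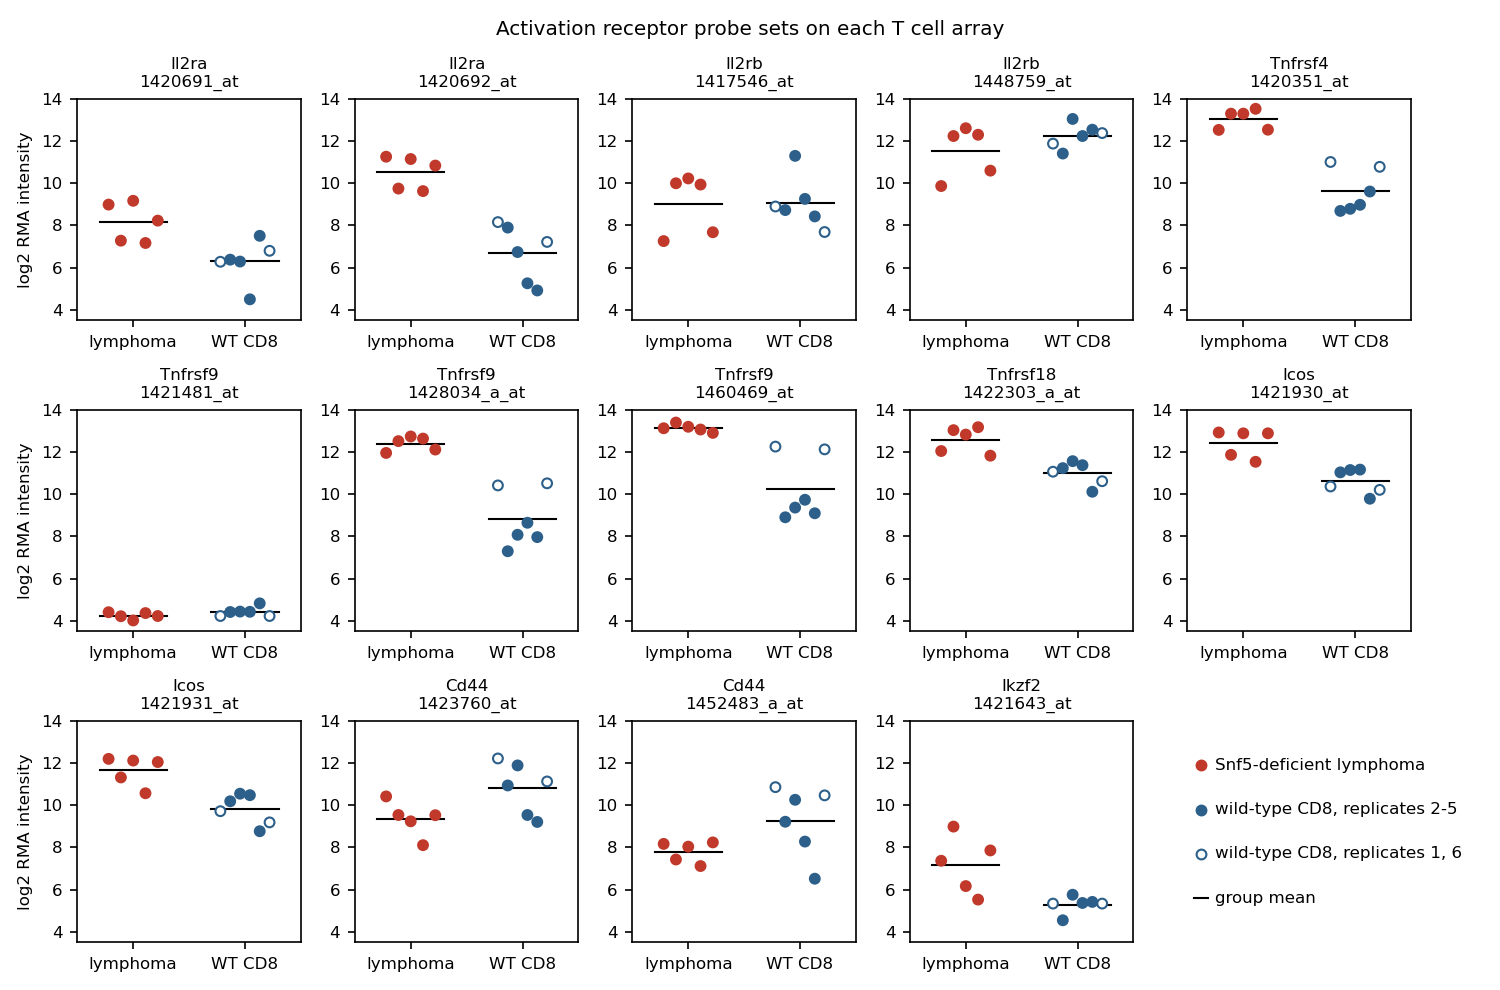
Log2 RMA intensity of each of the 14 probe sets on the 5 Snf5-deficient lymphoma arrays (red, left) and the 6 wild-type CD8 arrays (blue, right; replicates 1 and 6 open), with arrays in replicate order and bars at the group means. The lymphoma arrays lie above all wild-type arrays for Tnfrsf4, Tnfrsf18, both Icos probe sets, Il2ra 1420692_at and Tnfrsf9 1428034_a_at and 1460469_at, and the groups overlap for Il2rb and Cd44.

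Among the receptor chains for interleukin-2, Il2ra was higher in the lymphomas. Its probe set 1420692_at read 11.26, 9.75, 11.15, 9.63 and 10.84 on lymphoma arrays 1 to 5, against a lowest, median and highest value of 4.92, 6.98 and 8.16 on the wild-type arrays. The groups did not overlap, and within the lymphomas replicates 2 and 4 were the lowest. The mean was 10.53 ± 0.78 (SD, n = 5) in the lymphomas and 6.70 ± 1.35 (SD, n = 6) in the wild type, a log2 difference of 3.83 with a standard error (SE) of 0.622 and a 95% interval of 2.46 to 5.19 (adjusted p = 0.0025, limma; exact permutation p = 0.00216, two-sided, the smallest 5 against 6 arrays can give). That is 14.2-fold. The lowest wild-type value, 4.92 on replicate 5, lay in the lowest 25% of that array's values, so the fold is not firm. Against wild-type replicates 2 to 5, which include that array, the log2 difference was 4.32 (adjusted p = 0.0014). The other Il2ra probe set, 1420691_at, read 8.99, 7.28, 9.17, 7.17 and 8.23 in the lymphomas, against 4.50, 6.33 and 7.51 as the lowest, median and highest wild-type values. The wild-type value of 4.50, on replicate 4, also lay in the lowest 25% of its array's values. Lymphomas 2 and 4 were again lowest on this probe set and lay below the highest wild-type array. Its log2 difference was 1.88 (SE 0.535, adjusted p = 0.0370), and leaving out lymphoma 1, 3 or 5 or wild-type array 1, 2 or 3 ended the call, with adjusted p of 0.0527 to 0.0920. Against wild-type replicates 2 to 5 the difference was 2.00 (adjusted p = 0.0477), and it was no longer called without lymphoma 1, 3 or 5 or wild-type array 2, 3 or 4 (adjusted p up to 0.0991).

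Il2rb, the signalling chain shared with the interleukin-15 receptor, showed no such difference. Probe set 1448759_at read 9.87, 12.24, 12.61, 12.30 and 10.60 on lymphoma arrays 1 to 5, against 11.41, 12.31 and 13.05 as the lowest, median and highest wild-type values. Probe set 1417546_at read 7.26, 10.00, 10.23, 9.94 and 7.68 in the lymphomas, against 7.69, 8.81 and 11.30. Lymphomas 1 and 5 were the low arrays on both probe sets, at or below the lowest wild-type array, while lymphomas 2 to 4 lay inside the wild-type range. The log2 difference was -0.72 (95% interval -1.83 to 0.39, adjusted p = 0.362) for 1448759_at and -0.03 (-1.62 to 1.56, adjusted p = 0.982) for 1417546_at, intervals wide enough to hold a change of more than 1 log2 unit downwards. With replicates 2 to 5 alone as the wild type, the differences were -0.78 (adjusted p = 0.351) and -0.41 (adjusted p = 0.722).

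The 3 receptors of the tumour necrosis factor receptor family were all higher in the lymphomas. Tnfrsf4 (OX40, probe set 1420351_at) read 12.53, 13.30, 13.30, 13.53 and 12.54 on lymphoma arrays 1 to 5, against 8.69, 9.29 and 11.01 as the lowest, median and highest wild-type values. The groups did not overlap, and the highest wild-type values, 11.01 and 10.78, were those of replicates 1 and 6. The log2 difference was 3.40 (SE 0.458, 95% interval 2.39 to 4.40, 10.5-fold, adjusted p = 0.000889), and 4.02 against wild-type replicates 2 to 5 (16.2-fold, adjusted p = 2.38e-05).

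Tnfrsf9 (4-1BB) was read by 3 probe sets, of which 2 differed. Probe set 1428034_a_at read 11.96, 12.52, 12.74, 12.64 and 12.12 in the lymphomas, against 10.42, 7.30, 8.08, 8.65, 7.97 and 10.52 on wild-type arrays 1 to 6. Probe set 1460469_at read 13.13, 13.40, 13.20, 13.07 and 12.91 in the lymphomas, against 12.26, 8.91, 9.37, 9.74, 9.10 and 12.13. On both, the lymphoma arrays spanned less than 1 log2 unit and lay above all wild-type arrays, and wild-type replicates 1 and 6 lay far above the other 4. The log2 differences were 3.57 (SE 0.567, 11.9-fold, adjusted p = 0.00218) and 2.89 (SE 0.631, 7.42-fold, adjusted p = 0.0114). Against replicates 2 to 5 they were 4.39 (21.0-fold, adjusted p = 1.52e-05) and 3.86 (14.5-fold, adjusted p = 3.96e-06). The third probe set, 1421481_at, read 4.02 to 4.41 in the lymphomas and 4.23 to 4.83 in the wild type and lay in the lowest 25% of values on all 11 arrays, where RMA values carry little signal (log2 difference -0.18, adjusted p = 0.408).

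Tnfrsf18 (GITR, probe set 1422303_a_at) read 12.05, 13.04, 12.83, 13.18 and 11.83 on lymphoma arrays 1 to 5, against 10.12, 11.16 and 11.57 as the lowest, median and highest wild-type values. The groups did not overlap. Lymphomas 1 and 5, low for Il2rb, were also the lowest for Tnfrsf18 and for Tnfrsf4. The log2 difference was 1.59 (SE 0.325, 95% interval 0.87 to 2.30, adjusted p = 0.00846), and 1.51 against wild-type replicates 2 to 5 (adjusted p = 0.0197).

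Icos differed on both of its probe sets. Probe set 1421930_at read 12.93, 11.87, 12.89, 11.54 and 12.89 in the lymphomas, against 9.79, 10.70 and 11.17 as the lowest, median and highest wild-type values. Probe set 1421931_at read 12.20, 11.32, 12.12, 10.57 and 12.05, against 8.77, 9.96 and 10.55. Lymphomas 2 and 4 were the lowest on both, as for Il2ra, and lymphoma 4 exceeded the highest wild-type array by little on 1421931_at. The log2 differences were 1.80 (SE 0.349, 3.49-fold, adjusted p = 0.0064) and 1.83 (SE 0.399, 3.56-fold, adjusted p = 0.0112). Against wild-type replicates 2 to 5 they were 1.64 (adjusted p = 0.0174) and 1.65 (adjusted p = 0.0278), and the second of these calls ended without lymphoma 1, 3 or 5 (adjusted p up to 0.0631).

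Cd44 ran the other way without being called. Probe set 1423760_at read 10.42, 9.54, 9.24, 8.11 and 9.53 on lymphoma arrays 1 to 5, against 9.21, 11.03 and 12.22 as the lowest, median and highest wild-type values. Probe set 1452483_a_at read 8.17, 7.43, 8.04, 7.12 and 8.24, against 6.52, 9.74 and 10.86. The lowest wild-type array on both was replicate 5, which overlapped the lymphomas, and the wild-type arrays spread over more than 3 log2 units. On 1423760_at, wild-type replicate 4 (9.54) also lay inside the lymphoma range. The log2 differences were -1.45 (95% interval -2.74 to -0.16, adjusted p = 0.123) and -1.47 (adjusted p = 0.182). They were smaller against wild-type replicates 2 to 5, at -1.03 (adjusted p = 0.233) and -0.77 (adjusted p = 0.392). Wild-type replicates 1 and 6 read 12.22 and 11.13 on 1423760_at, and 10.86 and 10.47, the highest wild-type values, on 1452483_a_at. Without wild-type replicate 5, the difference of 1452483_a_at was -2.02 and passed the threshold (adjusted p = 0.0198, limma).

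Ikzf2 (Helios, probe set 1421643_at) was uneven among the lymphomas. It read 7.37, 8.99, 6.17, 5.53 and 7.86 on lymphoma arrays 1 to 5, against 4.55, 5.35 and 5.76 as the lowest, median and highest wild-type values. Lymphoma 4 lay inside the wild-type range, and lymphoma 2 was the highest array. The wild-type values lay near the floor, with 1 array in the lowest 25% of its values. The log2 difference of these RMA values was 1.89 (SE 0.531, adjusted p = 0.0353), and since the wild type lay near the floor it gives no firm fold. With 32 added to the intensities it was 1.38 and no longer called (adjusted p = 0.0527), and array weights ended the call too (adjusted p = 0.0539). It was 1.91 against wild-type replicates 2 to 5, where the call ended (adjusted p = 0.0579), and leaving out lymphoma 1, 2 or 5 or wild-type array 2, 4 or 5 also ended it, with adjusted p of 0.0532 to 0.0870.

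**Figure D3:**
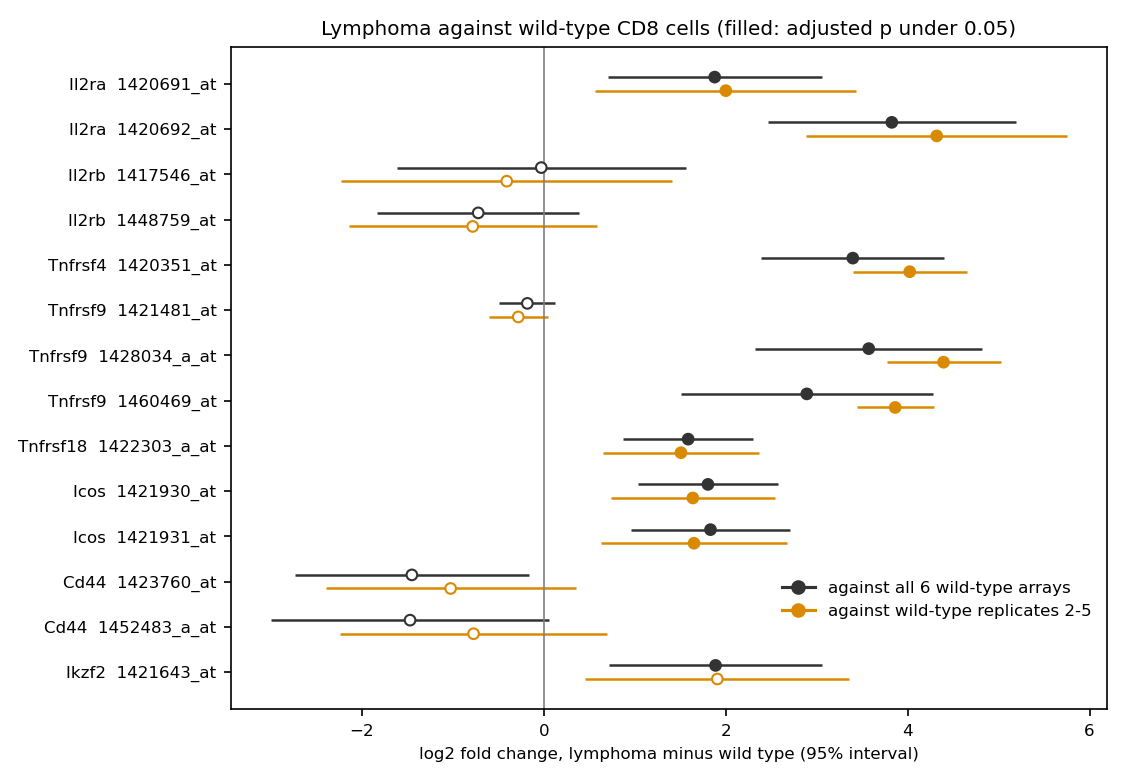
Log2 fold change of each probe set, lymphoma minus wild type, with its 95% interval, against all 6 wild-type arrays (dark) and against replicates 2 to 5 (orange), filled where the adjusted p was under 0.05. The intervals of Tnfrsf4 and of the 2 brighter Tnfrsf9 probe sets are narrower against replicates 2 to 5, and those of Il2rb cross 0 in both.

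Markers of other cell types and of the cell cycle differed between the groups. The myeloid and proliferation lists were entered in the model, and the part of the other lists in the results was not tested. Of the 10 myeloid markers, 0 passed the test against all 6 wild-type arrays (limma) and 4 were higher in the lymphomas against replicates 2 to 5, with summed intensities of 7166 to 20034 in the lymphomas and 1154 to 4531 on those 4 wild-type arrays. No myeloid or B cell marker lay in the lowest 25% of values on all 11 arrays. The mean myeloid level did not overlap between the lymphomas (7.78 to 9.61) and wild-type replicates 2 to 5 (6.01 to 7.72). A fit with this level against those arrays thus cannot separate it from the group. With it, all calls there fell from 5566 to 887. Adding the mean myeloid marker level to the model left 9 of the 14 probe sets higher against all 6 wild-type arrays and 3 against replicates 2 to 5. Those 3 were Tnfrsf4 (log2 difference 4.24, adjusted p = 0.00575) and the Tnfrsf9 probe sets 1428034_a_at (5.13, adjusted p = 0.00121) and 1460469_at (4.46, adjusted p = 0.000281). The calls of the other 5 ended. Tnfrsf18 then had a log2 difference of 2.57 (adjusted p = 0.0542), against 1.51 without the covariate, and Icos had 1.36 and 1.70 (adjusted p = 0.367 and 0.331), against 1.64 and 1.65. Il2ra 1420692_at had 2.91 (adjusted p = 0.190), against 4.32, and Il2ra 1420691_at turned to -0.09 (adjusted p = 0.966), against 2.00.

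Of 7 measured B cell markers, 1 was lower in the lymphomas against all wild-type arrays and 3 against replicates 2 to 5, with sums of 627 to 2753 in the lymphomas and 1662 to 2447 on replicates 2 to 5. Of 5 NK cell markers, 3 were lower against all wild-type arrays (median log2 difference -2.15) and 1 against replicates 2 to 5. Of 3 erythroid markers, 1 was lower in each comparison, with sums of 89.0 to 1077 in the lymphomas and 102 to 10185 in the wild type, highest on wild-type replicates 2 and 5 and lowest on arrays 3 and 4 in both groups.

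Proliferation markers, 7 of 8 measured, summed to 45556 to 51255 in the lymphomas, 7697 to 37156 on wild-type replicates 2 to 5 and up to 50548 over all wild-type arrays. Of the 7, 2 were higher in the lymphomas against all wild-type arrays and 4 against replicates 2 to 5. With their mean level in the model, 6 probe sets were still called against all 6 wild-type arrays: Tnfrsf4, Tnfrsf18, both of Icos, Il2ra 1420692_at and Tnfrsf9 1428034_a_at. Their log2 differences lay between 1.92 and 3.27. In the comparison with replicates 2 to 5, Il2ra 1420691_at was the 1 call that ended (log2 difference 0.82, adjusted p = 0.552). The mean proliferation level was 12.62 to 12.79 in the lymphomas and 9.80 to 12.07 on replicates 2 to 5. That fit thus cannot separate it from the group. On wild-type replicates 1 and 6 the level was 12.59 and 12.60, just below every lymphoma array. The groups thus did not overlap against all 6 wild-type arrays either, and the 6 calls kept there carry the same limit. Of the 3 markers listed for CD4 and regulatory T cells, 0 were higher in the lymphomas in either comparison, while Ctla4, which those cells also express, was higher against all 6 arrays (values further on). Foxp3, the transcription factor that defines these cells, read 5.16 to 5.99 in the lymphomas and 5.79 to 6.36 in the wild type, and Cd4 read 5.92 to 6.73 against 6.25 to 11.11. Foxp3 was not called against all wild-type arrays (log2 difference -0.48, adjusted p = 0.0801) and was lower against replicates 2 to 5 (-0.57, adjusted p = 0.0484).

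The genes around the receptors did not all move one way. Read through 1 probe set per gene, 9.13% of all genes were higher and 7.71% lower in the lymphomas than on the 6 wild-type arrays, with a median log2 fold change of -0.07. Against replicates 2 to 5, 13.2% were higher and 13.2% lower. Of 15 other costimulatory receptors, 5 were higher and 2 lower, with a median of -0.04. Crtam, an adhesion receptor of activated CD8+ T cells, averaged 13.01 ± 0.40 log2 units in the lymphomas and 10.64 ± 1.56 in the wild type (log2 difference 2.38, adjusted p = 0.0324). It was 1.44 against replicates 2 to 5 (adjusted p = 0.0145), and leaving out any 1 lymphoma, or wild-type replicate 5, ended the call against all 6. Tnfrsf1b, the receptor TNFR2, ranged from 11.86 to 12.41 in the lymphomas and from 9.21 to 11.28 in the wild type (log2 difference 1.62, adjusted p = 0.00778). Cd7 and Cd2, surface receptors found on most mature T cells, had far lower means: Cd7 averaged 6.08 ± 0.81 in the lymphomas and 11.93 ± 1.14 in the wild type (57.6-fold lower, adjusted p = 0.000138, with a log2 difference of -6.55 against replicates 2 to 5), and Cd2 8.76 ± 2.18 and 12.81 ± 0.83 (16.6-fold lower, adjusted p = 0.0102). The groups overlapped for Cd2, at 6.76 to 12.27 in the lymphomas and 11.58 to 13.66 in the wild type. For Cd7 they did not, but 1 lymphoma array lay in the lowest 25% of its values, so the fold is not firm.

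Of 10 measured genes on the ligand list, 0 were higher and 3 lower against all 6 wild-type arrays. The list also holds ligands of receptors other than the members. It includes Has2, an enzyme that makes hyaluronan, which lay in the lowest 25% of values on every T cell array. Icosl, the ligand of ICOS, averaged 7.48 ± 1.10 in the lymphomas and 10.11 ± 1.26 in the wild type (log2 difference -2.63, adjusted p = 0.0212, a call that ended without lymphoma 3 or 4). Its log2 difference against replicates 2 to 5 was -2.03 (adjusted p = 0.0486, limma). That call held in only 2 of the 9 fits with 1 array left out (adjusted p up to 0.109, limma). It also ended with 32 added to the intensities (adjusted p = 0.0576, limma). Cd86, a ligand of CD28, differed by -2.01 (adjusted p = 0.00187), and Clec2d, a ligand of an NK cell receptor, by -1.42 (adjusted p = 0.000962). Against wild-type replicates 2 to 5, 3 ligands were also higher: Tnfsf4, the ligand of OX40 (log2 difference 3.60, adjusted p = 0.00553), Cd80 (2.43, adjusted p = 0.00855) and Tnfsf9, the ligand of 4-1BB (2.19, adjusted p = 0.0179). Myeloid markers were higher in that comparison, while Icosl and Cd86 (log2 difference -1.88, adjusted p = 0.00496) were lower in it. The part of myeloid cells in these ligand differences was not tested.

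Of 17 genes of interleukin-2 and common gamma chain signalling, 1 was higher (Stat5a, log2 difference 0.62, adjusted p = 0.0254) and 4 were lower. The kinase Jak1 averaged 10.54 ± 0.12 in the lymphomas and 12.04 ± 0.89 in the wild type (-1.50, adjusted p = 0.0213, ended without lymphoma 4). Il7r, the interleukin-7 receptor of resting T cells, had 11.23 ± 0.92 and 13.02 ± 0.72 (-1.80, adjusted p = 0.0222). Socs3 and Pim1, which cytokine signals induce, differed by -2.25 (adjusted p = 0.00713) and -1.03 (adjusted p = 0.0149).

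Of 17 adaptors and NF-kB genes downstream of the TNF receptor family, 7 were higher and 2 lower, with a median of 0.54. Nfkb2, the precursor of the p52 subunit, averaged 11.39 ± 0.32 in the lymphomas and 9.42 ± 0.50 in the wild type (log2 difference 1.97, adjusted p = 0.000728). Bcl2l1, which encodes the survival factor Bcl-xL, differed by 1.82 (adjusted p = 0.00161) and Rel by 1.32 (adjusted p = 0.0442). The Rel call ended against wild-type replicates 2 to 5 (adjusted p = 0.0983) and without lymphoma 1, 3, 4 or 5 or wild-type array 1, 2, 3, 4 or 6. Traf5, an adaptor of OX40 and other receptors of the family, ran against its list, at 7.46 ± 1.56 and 10.30 ± 0.88 (-2.84, adjusted p = 0.0169).

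Of 8 Ikaros family and regulatory T cell genes, 1 was higher and 0 lower. That gene was Ctla4, an inhibitory receptor induced by activation, which read 13.62, 12.22, 12.42, 9.68 and 13.24 on lymphoma arrays 1 to 5, against a range of 8.02 to 10.72 on the wild-type arrays. Lymphoma 4 overlapped the wild type, as it did for Ikzf2. The log2 difference was 2.51 (adjusted p = 0.0395). The call ended against wild-type replicates 2 to 5 (1.85, adjusted p = 0.0863) and without lymphoma 1, 2, 3 or 5 or wild-type array 1, 2, 5 or 6.

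Of 20 regulators of T cell activation, 3 were higher and 3 lower. The transcription factor Batf averaged 13.44 ± 0.22 in the lymphomas and 10.95 ± 0.80 in the wild type (log2 difference 2.49, adjusted p = 0.00104), and its partner Irf4 13.48 ± 0.15 and 11.65 ± 1.16 (1.83, adjusted p = 0.0270). The third was Egr2 (1.59, adjusted p = 0.00528). Eomes, a T-box factor of effector and memory CD8+ cells, averaged 4.88 ± 0.52 in the lymphomas and 9.29 ± 1.67 in the wild type (log2 difference -4.41, adjusted p = 0.00234, and -5.41 against replicates 2 to 5). Of its 5 lymphoma arrays, 4 lay in the lowest 25% of their values, so the difference is from the floor and gives no firm fold. Klf2, a factor of resting T cells, differed by -2.39 (adjusted p = 0.0287), and Id2 by -1.09 (adjusted p = 0.0120). The Irf4 call ended without any 1 lymphoma or wild-type array 2, 4 or 5 (adjusted p up to 0.0607), and the Klf2 call without lymphoma 2, 3 or 4 or wild-type array 2, 3, 4 or 5 (up to 0.0754). Both passed the test against replicates 2 to 5, with adjusted p of 0.000121 for Irf4 (log2 difference 2.53) and 0.0105 for Klf2.

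Against wild-type replicates 2 to 5, the counts of higher and lower genes were 3 and 2 for the other costimulatory receptors and 3 and 3 for the ligand list. For interleukin-2 signalling the counts were 1 and 5. The counts were 7 and 3 for the adaptors and NF-kB genes, 0 and 3 for the Ikaros family and regulatory T cell genes, and 4 and 3 for the activation regulators.

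**Figure D4:**
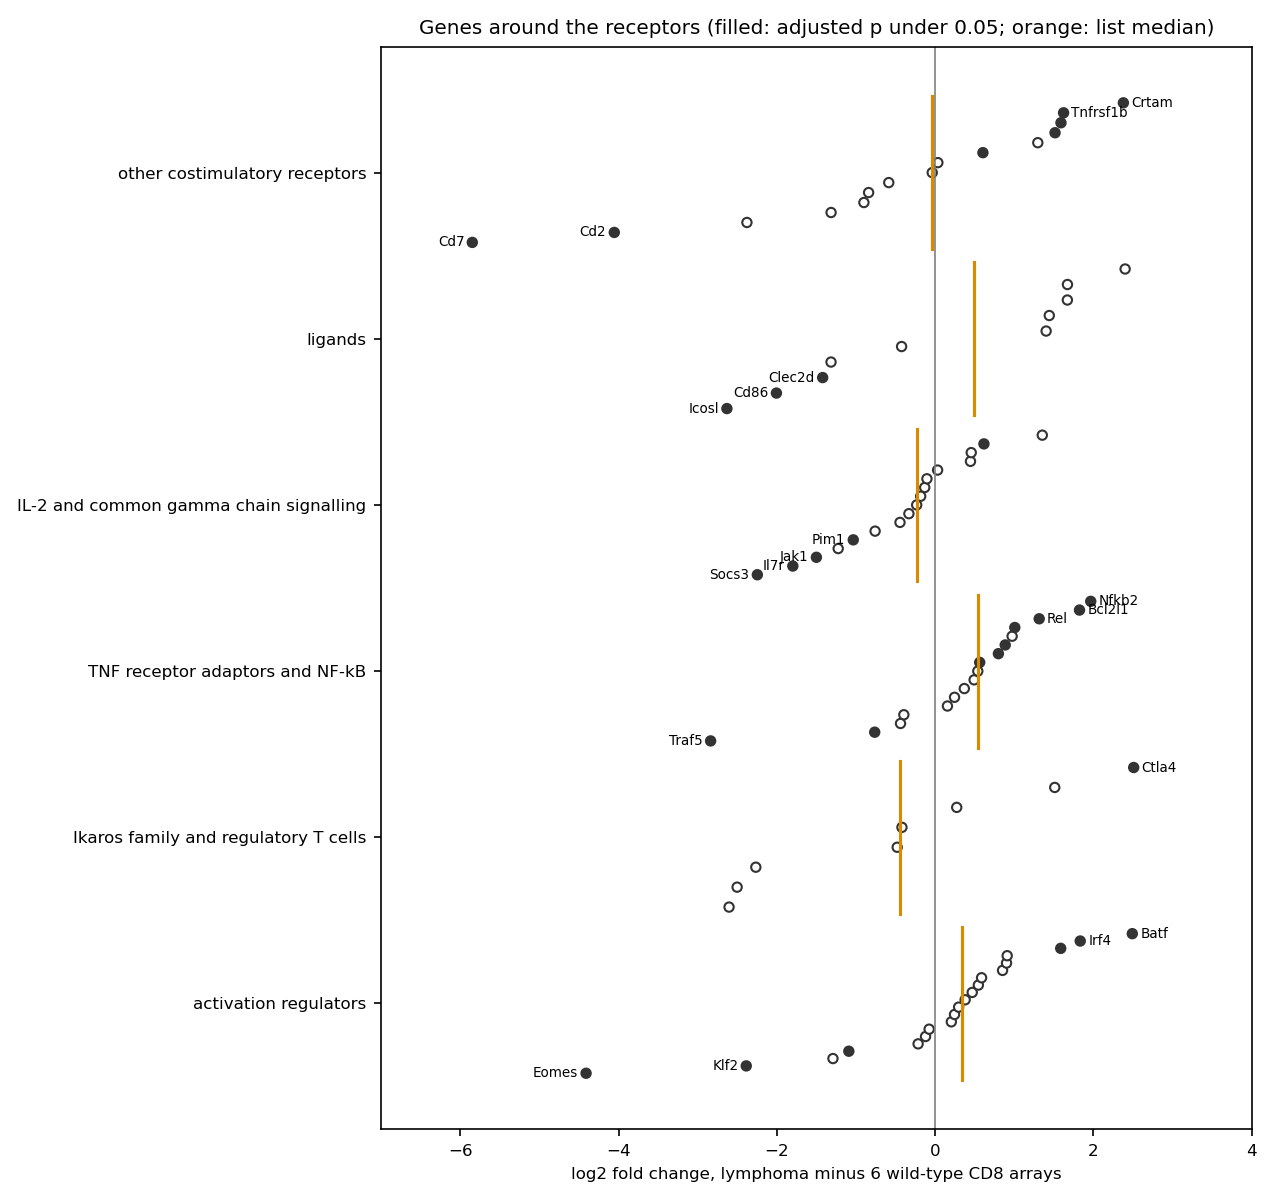
Log2 fold change, lymphoma minus the 6 wild-type CD8 arrays, of each measured gene of 6 lists around the receptors (points, filled where the adjusted p was under 0.05) with the median of each list (orange bar) and the named genes labelled. The adaptor and NF-kB list has 7 filled points above 0 and a median of 0.54, and Cd7, Eomes and Cd2 lie farthest to the left.

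In the fibroblasts, none of the receptors passed the test when Ezh2, or Snf5 and Ezh2, were missing. With limma, 0 of the 14 probe sets passed in the Ezh2-deficient comparison, where 3.14% of all probe sets did, and 0 in the comparison of fibroblasts deficient in both, where 25.9% did; 4 and 0 had an unadjusted p under 0.05. On 6 of the 14, the Ezh2-deficient arrays lay above all wild-type arrays, against 15% of all probe sets, and their adjusted p were at least 0.0784. Most members were near the floor: both Il2ra probe sets, 2 of Tnfrsf9 and those of Tnfrsf18, Ikzf2 and Icos 1421931_at lay in the lowest 25% of values on all 12 fibroblast arrays as deposited.

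Cd44, which fibroblasts also make, was bright. Probe set 1423760_at read 11.12, 11.59 and 11.46 in Ezh2-deficient fibroblasts, against 11.19, 11.36 and 11.18 in the wild-type arrays processed with them. It read 11.09, 11.33 and 11.05 in fibroblasts deficient in both, against 11.16, 11.32 and 11.13. The groups overlapped in both, with log2 differences of 0.15 (adjusted p = 0.482) and -0.05 (adjusted p = 0.820). Tnfrsf4 read 7.94 to 8.14 in Ezh2-deficient and 7.80 to 7.92 in wild-type fibroblasts (log2 difference 0.21, adjusted p = 0.164). In fibroblasts deficient in both it averaged 7.98 ± 0.13, against 7.90 ± 0.06 in the wild type (SD, n = 3 each; log2 difference 0.08, adjusted p = 0.508 with limma). These 2 comparisons share their wild-type samples, and with 3 arrays on each side an exact two-sided permutation test cannot go below 0.1.

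For each measured member, the gene whose array-to-array pattern was most alike was sought among 6900 genes with a mean log2 of at least 8, by Pearson correlation over the 11 T cell arrays after each group's mean was subtracted. The largest values were 0.986 for Tnfrsf9 with Gng3, 0.964 for Tnfrsf4 with Srxn1 and 0.954 for Tnfrsf18 with Psmg3. Il2rb had 0.933 with Sh2d3c, Cd44 0.928 with Swi5, Icos 0.916 with Ralgps2, Ikzf2 0.900 with Zfp568 and Il2ra 0.874 with Vamp3. The likeness of Tnfrsf9 and Gng3 was 0.296 within the lymphomas and 0.991 within the wild-type arrays. These are descriptions over arrays that share their cell makeup and appear to share their RMA run.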

How the data were processed

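Per the labels' protocols, the authors extracted total RNA, hybridised it to Affymetrix mouse 430A arrays and processed the scans with Robust Multichip Average (RMA), of an unstated version. The authors deposited these RMA values as linear intensity. They were turned into log2 values for all fits. RMA appeared to have been run separately for fibroblast and T cell arrays, judged by their value distributions, as the labels do not state it. Levels were therefore not compared between fibroblast and T cell arrays. The 2 wild-type fibroblast sets were also offset from one another (median -0.069 log2 units, second minus first). Whether each fibroblast set had its own RMA run is not stated either. Of 22626 probe sets tested, after 64 controls were left out, 20380 named 1 gene in the platform annotation, 691 several and 1555 none. Each other gene was read through its brightest probe set over all 23 arrays.

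Groups were compared with limma 3.58.1 under R 4.3.3 (lmFit, then eBayes). P-values were adjusted by the Benjamini-Hochberg method across all probe sets, and 0.05 was the threshold on the adjusted p. Residual degrees of freedom were 9 for the 11 T cell arrays, 7 with wild-type replicates 2 to 5, and 6 for the fibroblasts. The 3 wild-type fibroblast arrays of the second set repeated those of the first: across 7349 bright probe sets, the SD of the difference was 0.0266 to 0.0287 between arrays of one number and 0.141 to 0.163 between numbers. Each probe set's offset between the sets was removed and repeats were averaged. Arrays give no counts, and their number limits the precision.

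Members and lists were chosen with earlier results of these data known. Named genes were all members, up to 4 called genes with the largest change per list, and the gene most like each member. Stat5a, Egr2, Id2, Tnfsf4, Tnfsf9, Cd80, Foxp3 and Cd4 were added after their values were seen. Alternatives were another scaling, a pseudocount of 32, a filter on dim probe sets, array weights, trended and robust fits, a replicate block, leaving out each array, and marker levels as covariates. The fits were tested on simulated data.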

Additional observations from a re-analysis of the deposited data

Results flagged for a closer look

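Of 72 groups of 5 or 6 T cell arrays examined for an array far from the others of its group, 5 had one, where chance gives about 1 in 20. Tnfrsf9 probe set 1421481_at read 4.83 on wild-type CD8 array 5 and 4.23 to 4.44 on the other 5, all near the floor. Ikzf2 read 4.55 on wild-type array 2 and 5.34 to 5.76 on the others. Tnfrsf1b read 12.41 on lymphoma array 4 and 11.86 to 11.98 on the other 4 lymphomas. Il7r read 9.62 on lymphoma array 2 and 11.34 to 11.95 on the others. Pim1 read 12.55 on wild-type array 1 and 12.06 to 12.18 on the others.

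The effects in the fibroblasts differed between the lines for 1 of the 14 member probe sets. The share of all probe sets passing this test is not given here, so the count is not a result about the members. In fibroblasts deficient in both, 25.9% of all probe sets differed from the wild type. For Icos 1421931_at, the effect of the combined Snf5 and Ezh2 deficiency minus that of the Ezh2 deficiency was -0.21 on the log2 scale (adjusted p = 0.0349, limma), at a level in the lowest 25% of values on every fibroblast array.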

How the results depend on the processing

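Against all 6 wild-type arrays, 9 member probe sets were called with an added myeloid covariate, median centring, quantile normalization, a filter on dim probe sets or trended fits. The count was 8 with a pseudocount of 32 and 6 with a proliferation covariate, and 8 higher and 1 lower with array weights, where Cd44 1452483_a_at passed and all probe sets called numbered 5567 instead of 3463. Leaving out 1 array gave 7 to 9 higher and 0 to 1 lower, and 6 to 9 higher and 0 to 1 lower against replicates 2 to 5, the call of lower Cd44 1452483_a_at coming without wild-type array 5. Against replicates 2 to 5, 8 higher probe sets became 3 with the myeloid covariate, and all calls, 5566, became 887 with it and 3221 with the proliferation covariate. Both covariates were chosen after seeing the data, and neither overlapped between the lymphomas and wild-type replicates 2 to 5. The proliferation level did not overlap between the lymphomas and all 6 wild-type arrays either. The Rel call also ended with median centring (adjusted p = 0.0696) or repeated quantile normalization (adjusted p = 0.0539, limma).

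The labels do not say that equal replicate numbers mark a shared origin. Same-numbered lymphoma and wild-type arrays deviated together with correlations of 0.0799 to 0.312, and 3 of 5 correlated best with their own number, a hint from the data short of a pairing. With a replicate block, 7 member probe sets were called against all wild-type arrays, without Icos 1421931_at (adjusted p = 0.0556) and Ikzf2 (0.0959), and Ctla4 (0.121) and Klf2 (0.0663) also lost their calls. Against replicates 2 to 5 it left 5, without Il2ra 1420691_at (0.0501) and Icos 1421930_at (0.0831) and 1421931_at (0.102), limma. The Ezh2-deficient comparison over all probe sets gave 359 calls with the replicate block, 423 when each fibroblast set was fitted by itself and 158 to 741 without 1 array, instead of 710.

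Directions turned for the uncalled Il2rb 1417546_at, with 0.18 and 0.88 under the myeloid and proliferation covariates and -0.33 to 0.42 without 1 array, and against replicates 2 to 5 with 1.87, 1.01, 0.032 (replicate block) and -0.74 to 0.22. Against replicates 2 to 5, the called rise of Il2ra 1420691_at turned to -0.086 under the myeloid covariate, and uncalled directions turned for Il2rb 1448759_at (0.58) under it and Cd44 1452483_a_at (0.39) under the proliferation covariate. Without 1 array, values near 0 changed sign in Ezh2-deficient fibroblasts for Il2rb 1417546_at (-0.062 to 0.075), Cd44 1452483_a_at (-0.075 to 0.16), Ikzf2 (-0.11 to 0.050) and Il2ra 1420691_at (-0.0015 to 0.12). In fibroblasts deficient in both they did for Il2rb 1448759_at (-0.090 to 0.12), Tnfrsf9 1428034_a_at (-0.029 to 0.030), Il2ra 1420692_at (-0.11 to 0.074), Cd44 1423760_at (-0.14 to 0.0081), Icos 1421931_at (-0.080 to 0.032), Ikzf2 (-0.11 to 0.023) and Icos 1421930_at (-0.013 to 0.15). The causes were not tested. Probe sets near the floor, such as Tnfrsf9 1421481_at, limit what the arrays can show.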

Other observations

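The 5 lymphomas were not alike in these receptors. Lymphomas 1, 3 and 5 were highest for both Il2ra and both Icos probe sets, and lymphomas 2 and 4 lowest. Lymphomas 1 and 5 were lowest for both Il2rb probe sets, Tnfrsf4, Tnfrsf18 and Tnfrsf9 1428034_a_at. These 2 arrays were also the most alike pair of T cell arrays, with an SD of their log2 differences of 0.365 over bright probe sets and a Pearson correlation of 0.991 across all probe sets. The 3 lymphoma arrays with the highest mean myeloid marker level, 9.53, 9.61 and 9.58 on lymphomas 1, 3 and 5, were those with the highest Il2ra and Icos. Wild-type replicates 1 and 6 had higher myeloid levels, 11.8 and 11.7. There Icos 1421930_at read 10.37 and 10.21, inside the 9.79 to 11.17 of the other wild-type arrays. Il2ra 1420692_at read 8.16 and 7.22 there, against 4.92 to 7.90 on the others. The relation of these genes to the myeloid level was not tested, with only 5 lymphoma arrays.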
